A study of Mus musculus with 6 samples.

Results

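Chemokines, interleukins, the receptors of the TNF family and the NF-kB factors that many of them act through were followed in mouse inguinal fat cells given rosiglitazone. Genes were taken by symbol from the families Ccl, Cxcl, Ccr, Cxcr, Il and Tnfrsf (Tnfrsf9 left out), together with Lif, Lifr, Osmr, Csf1, Nfkb2, Rela, Relb, Nfkbia, Tnfaip3, Icam1, Vcam1 and Socs3, with the brightest probe set standing for a gene. Nfkb1 was not analysed here. Of 149 genes with such a symbol, the 64 whose mean intensity reached 50 in at least 1 group are described here, of 12952 genes tested on the arrays. The groups were 3 arrays of differentiated inguinal fat cells given 1 uM rosiglitazone for 4 days and 3 arrays of control cells of the same kind. Rosiglitazone belongs to the thiazolidinediones, agonists of the fat cell regulator PPARγ. The labels call the drug's effect on these cells beiging and the control cells non-activated. The labels used here give no strain, age or allele for either group. Whether a group's 3 samples were separate cultures is not stated, so p-values here reflect the spread among these samples alone, and it may be technical.

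Chemokines are small secreted proteins that draw leukocytes into tissue through G protein-coupled receptors, and the fat tissue of obese animals is known for recruiting monocytes in this way. Interleukins of the IL-1 family and TNF signal through receptors that end in release of NF-kB from its inhibitor IκBα, while IL-6, leukaemia inhibitory factor and oncostatin M share the receptor chain gp130 and act through JAK kinases and STAT factors. PPARγ agonists are known to restrain inflammatory genes in macrophages and fat cells.

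Array medians lay between 44.5 and 45.6 with rosiglitazone and between 45.6 and 46.7 in control cells, and the number of arrays limits the precision. Intensities are on a linear scale, and those under 16 were set to 16 before log2 was taken for the fit. A gene is called where limma's adjusted p, over all genes tested, is under 0.05. The fat cell markers Adipoq and Fabp4 averaged 13158 and 17148 with rosiglitazone and 12829 and 17647 in control cells. Both groups thus held both transcripts at high levels, while other fat cell markers changed, as given below. In median centring of the arrays the median log2 change of all genes lay 0.12 above that of the deposited scale, and the changes below are on the deposited scale.

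The promoters of several of these genes hold letters of the NF-kB consensus, a sequence that NF-kB dimers are known to bind. RefSeq promoter windows (GRCm38.p6) were matched by symbol to 48 of the 64 genes, and the 250 bases before the start were searched on both strands. The NF-kB consensus was found in 9 of the 48 genes (18.8%), against 4.46% of all 27025 genes with a window. The STAT motif TTCNNNGAA was found in 9 (18.8%), against 8.13% of all, and the PPAR motif (AGGNCA, any base, AGGNCA) in 1 (2.08%), against 0.4%. These are counts of letters in a window and not of bound sites. Some matches of the NF-kB consensus overlap each other, as the pair in Cxcl1 does. Stretches around matches are shown for genes whose values follow, Csf1, Nfkbia, Cxcl10 and Cxcl1 for the NF-kB consensus, Socs3 for the STAT motif and Ccl6 for the PPAR motif, written 5′ to 3′ on the gene's strand with the match, on either strand, in capitals.
Csf1, chr3:107760584-107760653 (minus strand): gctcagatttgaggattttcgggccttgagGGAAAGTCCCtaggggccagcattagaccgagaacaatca
Nfkbia, chr12:55492648-55492706 (minus strand): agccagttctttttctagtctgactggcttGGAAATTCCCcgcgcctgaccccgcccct
Cxcl10, chr5:92348953-92349078 (minus strand): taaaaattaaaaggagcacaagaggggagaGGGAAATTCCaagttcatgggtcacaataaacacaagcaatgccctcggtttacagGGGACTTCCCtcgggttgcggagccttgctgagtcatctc
Cxcl1, chr5:90891144-90891214 (plus strand): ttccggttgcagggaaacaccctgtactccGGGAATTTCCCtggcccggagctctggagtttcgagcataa
Socs3, chr11:117969482-117969550 (minus strand): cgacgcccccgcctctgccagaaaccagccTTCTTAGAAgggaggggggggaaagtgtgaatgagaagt
Ccl6, chr11:83593133-83593205 (minus strand): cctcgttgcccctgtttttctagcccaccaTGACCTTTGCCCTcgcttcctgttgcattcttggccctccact

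Markers of other cell types moved along with the genes described below. Of 16 macrophage markers 12 were tested and 11 fell, with a median log2 change of −1.40, and Fcgr1 was not called. Among all genes tested 35.8% were called lower. The summed intensity of the 16 was 4283 to 4662 with rosiglitazone and 12511 to 13656 in control cells. Itgam, Cd163, Cx3cr1 and Aif1 were too dim to test, with group means of 4.66 to 20.1 with rosiglitazone and 8.15 to 32.003 in control cells. All 8 tested fibroblast and preadipocyte markers fell as well (median −1.33), and the 9 on the arrays had summed intensities of 13441 to 14034 with rosiglitazone and 28102 to 28668 in control cells. In bulk samples fewer cells of a type and less RNA per cell cannot be told apart, and the part of either cell type in the changes of the chemokine, interleukin and TNF receptor genes was not tested. Ptprc, made by all leukocytes, fell by 1.17 and was the only one called of 3 tested leukocyte and lymphocyte markers, and Cd8a and Cd79b were not called. Cd8a, a T cell gene, averaged 109.8 with rosiglitazone and 109.6 in control cells, on a probe set whose probes can pair with other transcripts. The T cell genes Cd3e, Cd4, Cd3g and Cd3d were too dim to test, with group means of 1.78 to 27.0 with rosiglitazone and 1.00 to 21.5 in control cells. Of the endothelial markers 2 of 8 were tested, Tek, which fell by 1.15, and Sox18, which rose by 0.46. Among 6 tested fat cell markers 1, Cidec, was higher (log2 change 0.28) and 3 were lower, of which Pparg fell by 0.36 and Lipe by 0.23. One of the 3, the leptin gene Lep, passed the filter on low values through the control group alone and averaged 19.1 ± 7.52 with rosiglitazone and 665 ± 41.3 in control cells (SD, n = 3 each, as for every mean below).

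Because the level of 50 in either group chose the genes, the choice itself favoured a difference in those that reached it in 1 group only. These are given by their values alone, with no call. They number 11 that reached it in control cells only (Ccl12, Ccr6, Cxcl10, Cxcl13, Il13ra1, Il17d, Il1rn, Il27ra, Il34, Il7 and Relb) and 4 that reached it with rosiglitazone only (Ccr4, Cxcl17, Il1f6 and Il31ra). Of the other 49, 32 were lower and 1 was higher with rosiglitazone and 16 were not called. Among all genes tested 35.8% were lower, 23.6% higher and 59.4% called in either direction. All genes tested include dimmer ones than the 49, down to a mean of 27.3. No share was taken over genes of matched intensity. Among the 49, 10 were lower by 2-fold or more and none was higher by as much, beside 4.62% and 1.51% of all genes tested. The arrays of the groups did not overlap for 38 of the 49, lower with rosiglitazone in 36 and higher in 2, where 64% of all genes tested did not overlap. The median log2 change of the 49 was −0.49, beside −0.051 for all genes tested. The genes nearest to the level on its inner side were Tnfrsf22, Ccl12 and Il31ra, with higher group means of 50.8, 51.0 and 53.5, and on its outer side Icam1, Il16 and Cxcl9, with 49.9, 47.5 and 46.9.

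**Figure D1:**
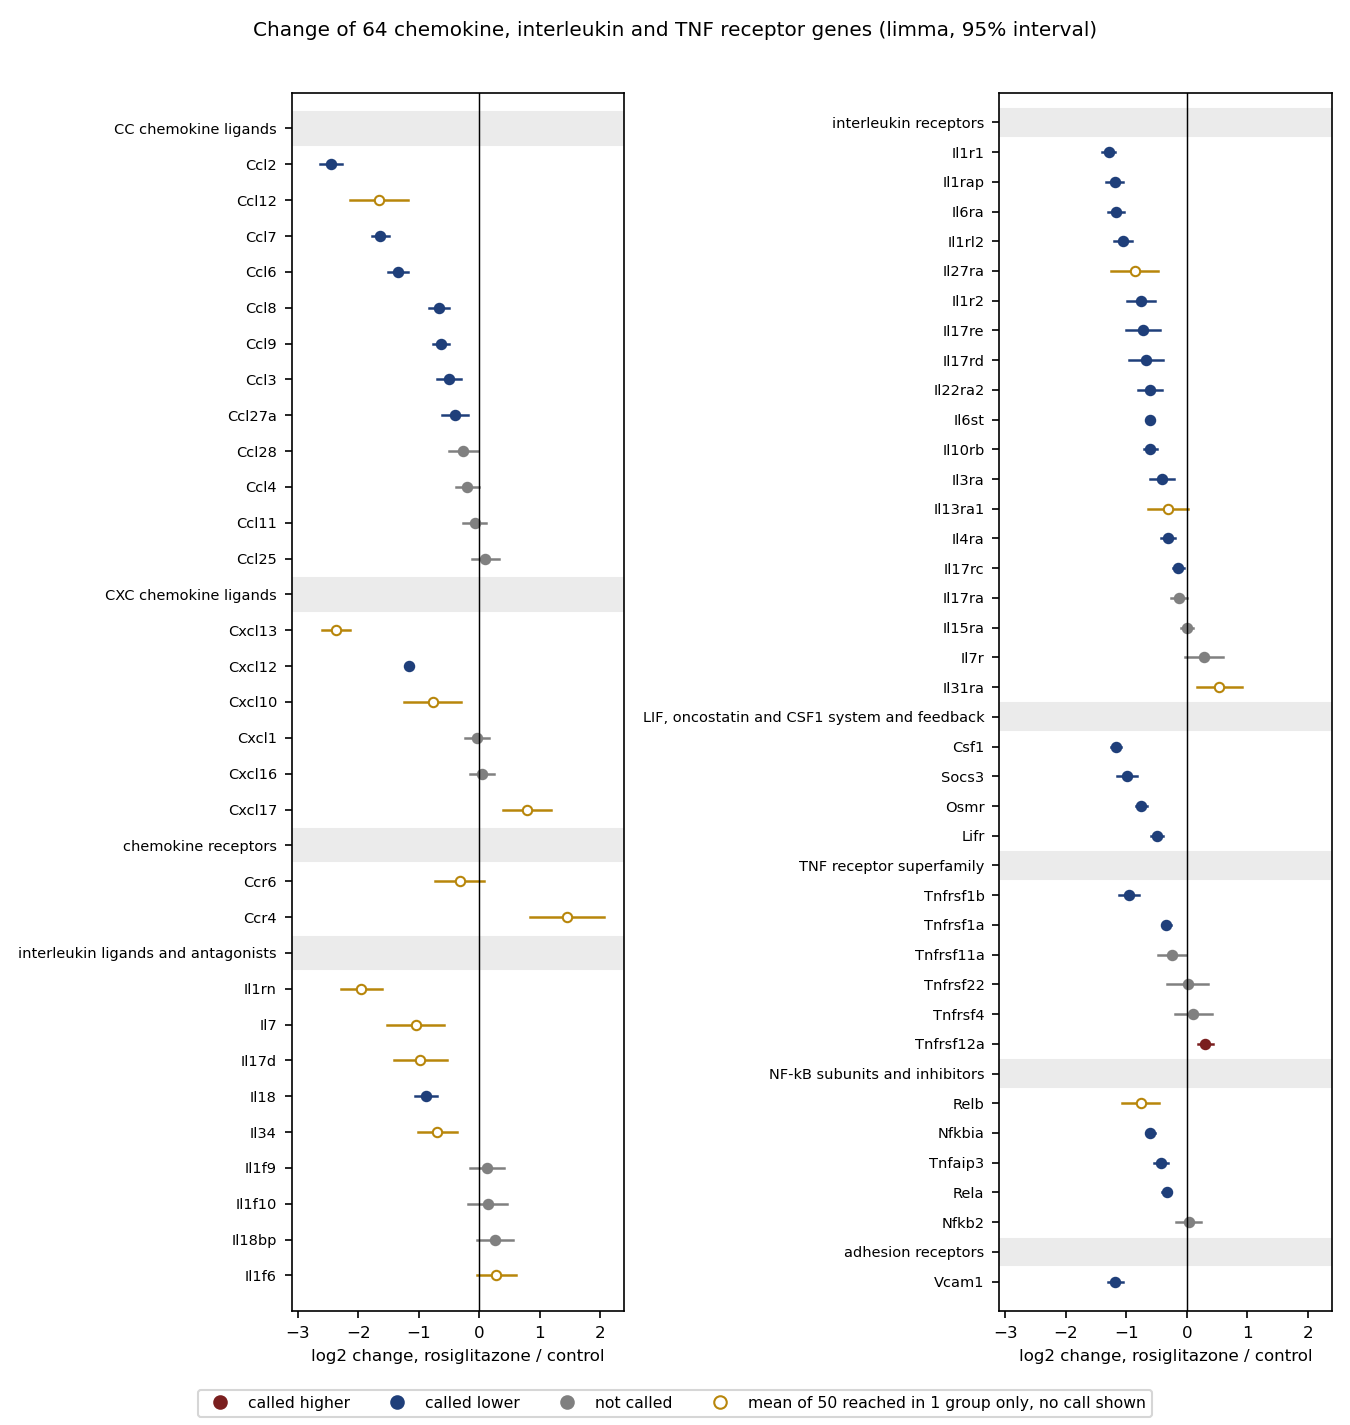
Log2 change (rosiglitazone over control, horizontal axis) of the 64 genes, grouped by role, as points with limma's 95% interval, where blue points were called lower, red higher and grey not called. Open points mark the 15 genes whose mean reached 50 in 1 group only. Among filled points Ccl2 lies farthest left, at −2.45, and Tnfrsf12a is the only red one, at 0.31.

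Of 11 CC chemokine ligands with a mean of 50 in both groups 7 fell (63.6%) and 4 were not called, beside 35.8% lower among all genes tested. The monocyte attractants Ccl2 and Ccl7 fell furthest. Ccl2 had intensities of 117, 135 and 128 with rosiglitazone, against 622, 802 and 656 in control cells. All 3 treated arrays lay far under the lowest control array, and Ccl2 was 5.46-fold lower, a log2 change of −2.45 (SE 0.085, adjusted p = 6.2e-13). Ccl7, another attractant of monocytes, had 262, 244 and 252 with rosiglitazone and 715, 887 and 754 in control cells. Its groups did not overlap, with a 3.10-fold lower level and a log2 change of −1.63 (SE 0.069, adjusted p = 5.8e-12). Ccl6, a chemokine that mouse myeloid cells make, had 125, 148 and 154 with rosiglitazone and 360.4, 370.4 and 347 in control cells, again without overlap, and fell by 1.34 on the log2 scale (SE 0.079, adjusted p = 3.5e-10). Ccl12, also a monocyte attractant, had 3.59, 2.94 and 11.6 with rosiglitazone and 60.5, 45.2 and 47.4 in control cells. All its treated arrays were under the floor of 16, and it reached 50 in control cells only.

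The other CC ligands changed less. Ccl8 fell by 0.66, Ccl9, a myeloid chemokine of rodents, by 0.63, Ccl3, an attractant made by macrophages, by 0.50 and the skin chemokine gene Ccl27a by 0.39, with adjusted p between 2.0e-07 and 0.00285. The groups of these 4 did not overlap, but the call of Ccl27a was lost when no filter on low values was used. Ccl11, which encodes eotaxin, an attractant of eosinophils, averaged 712 ± 34.6 with rosiglitazone and 755 ± 134 in control cells (SD, n = 3 each), and its groups overlapped. Its log2 change of −0.07 had a 95% interval of −0.26 to 0.12 (adjusted p = 0.53). Without control replicate 3, its lowest control array at 614, the change of Ccl11 was −0.21 and called (adjusted p = 0.00533). Ccl28, Ccl4 and Ccl25 were not called either, at log2 changes of −0.26, −0.20 and 0.10, although Ccl28 was called without the variance trend or with a weaker filter. The other probe set of Ccl28 past the filter went the opposite way, at 0.27, and was not called. Ccl4 was called at −0.25 without control replicate 2 (adjusted p = 0.0499).

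Of 3 CXC chemokine ligands with a mean of 50 in both groups 1 fell (33.3%), beside 35.8% lower among all genes tested. Cxcl12, which holds blood stem cells and leukocytes in stromal niches through Cxcr4, had 2101, 2189 and 2158 with rosiglitazone and 4827, 4596 and 4951 in control cells. Its arrays were tight within each group, and it was 2.23-fold lower, a log2 change of −1.16 (SE 0.033, adjusted p = 5.2e-14). Cxcl13, the B cell attractant, had 37.9, 43.0 and 43.9 with rosiglitazone and 221, 199 and 223 in control cells. The interferon-induced gene Cxcl10, whose promoter holds 2 of the matches above, had 29.4, 58.3 and 37.5 with rosiglitazone and 53.9, 76.4 and 77.1 in control cells, and its groups overlapped. Cxcl17 ran the other way, with 45.2, 53.8 and 61.8 with rosiglitazone and 33.4, 30.6 and 28.3 in control cells. Cxcl1, a neutrophil attractant, and the membrane-bound Cxcl16 had log2 changes of −0.036 and 0.044 and were not called (adjusted p = 0.776 and 0.706). The brightest set of Cxcl1 is of a kind whose probes can pair with other transcripts. Its 2 dimmer probe sets were called lower, at −0.69 and −0.76.

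Chemokine receptors were dim. Of 15 with a probe set, Ccr4 and Ccr6 alone reached 50 in a group. Ccr4, a receptor of T cell subsets, had 75.1, 74.4 and 41.9 with rosiglitazone and 14.2, 20.1 and 35.7 in control cells, where the lowest treated array stood just above the highest control array. Ccr6 had 35.1, 48.5 and 62.3 with rosiglitazone and 53.2, 59.5 and 65.6 in control cells, and the groups overlapped. The highest group mean among the other 13, Cxcr4 and Ccr2 among them, was 39.5, in Ccr1l1.

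**Figure D2:**
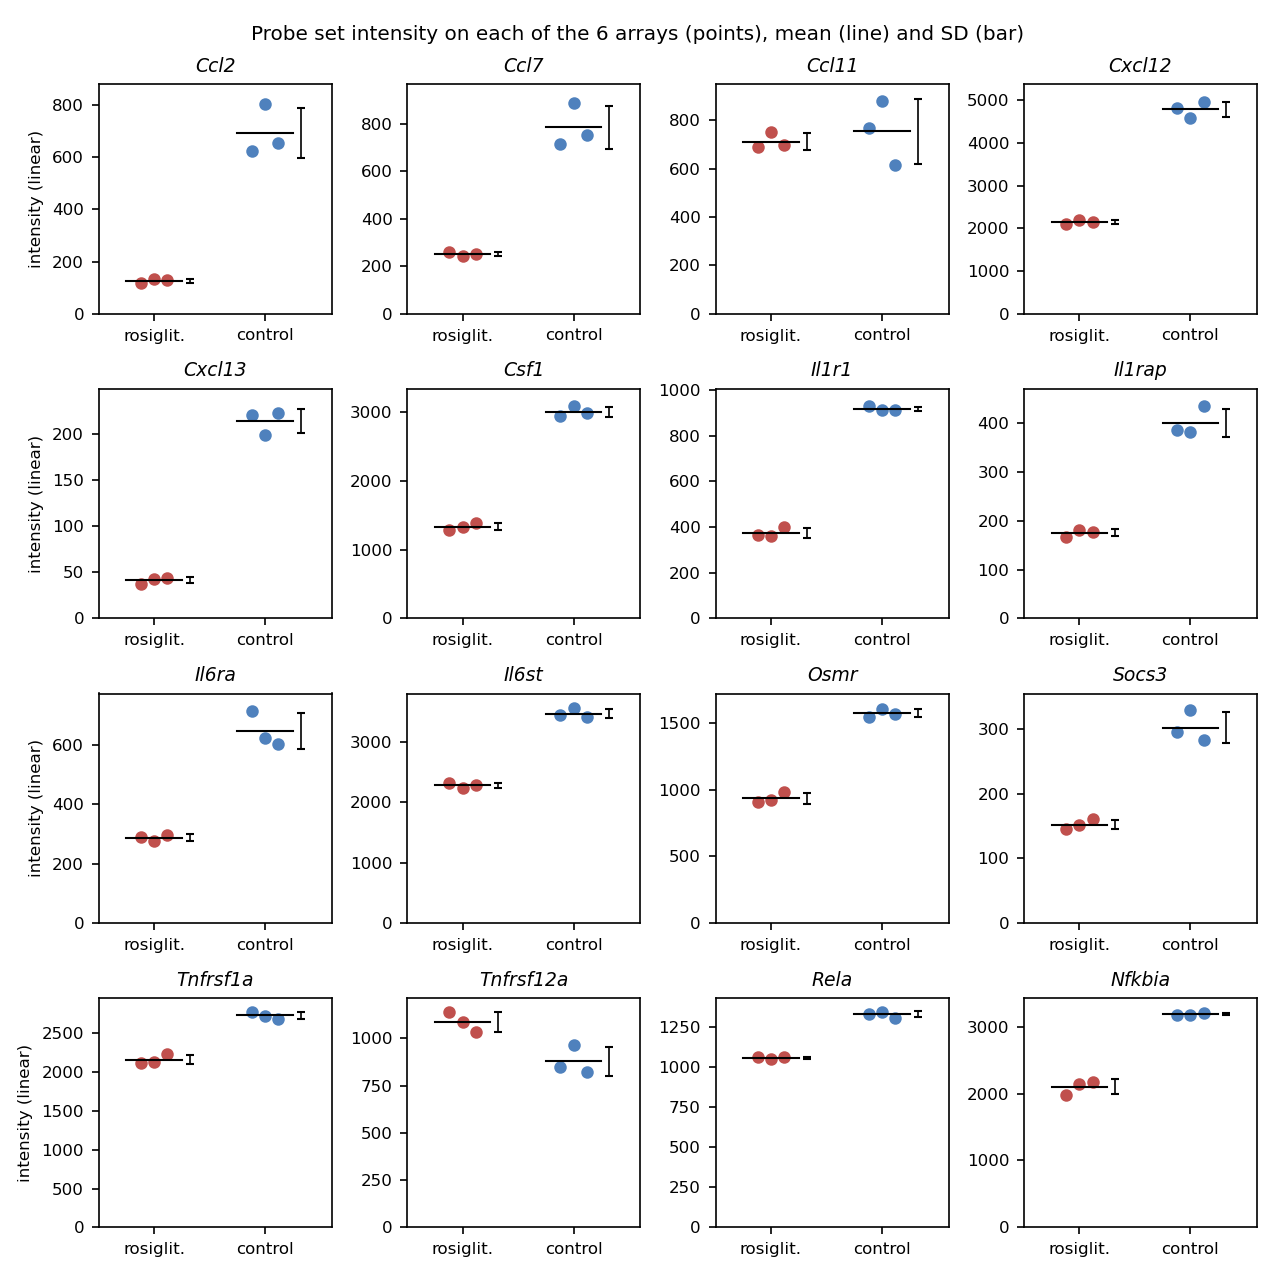
Intensity (linear, vertical axis) of 16 of the genes on each array, rosiglitazone (red) left and control (blue) right, with the group mean as a line and its SD as a bar. The groups overlap in the panel of Ccl11, and in the panel of Tnfrsf12a the treated arrays lie above the control arrays.

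In the IL-1 system, both chains of the signalling receptor fell. Il1r1, the receptor of IL-1, had 363, 360.4 and 401 with rosiglitazone and 928, 911 and 913 in control cells. Il1rap, its accessory chain, had 167, 182 and 177 with rosiglitazone and 386, 383 and 434 in control cells. Neither gene's groups overlapped. Il1r1 fell by 1.29 (SE 0.051, adjusted p = 2.2e-12), and Il1rap by 1.19 (SE 0.068, adjusted p = 2.3e-10). Il1rl2, the receptor for the IL-36 cytokines, had 131, 123 and 136 with rosiglitazone and 275, 277 and 259 in control cells and fell by 1.06 (SE 0.073, adjusted p = 2.4e-09). The decoy receptor gene Il1r2 fell by 0.75 (SE 0.11, adjusted p = 1.4e-05). Il1rn, which encodes the antagonist that occupies the IL-1 receptor without signalling, had 23.3, 26.8 and 31.6 with rosiglitazone and 102, 113 and 97.9 in control cells. Il18, an IL-1 family cytokine that inflammasomes release, had 91.7, 94.6 and 95.9 with rosiglitazone and 165, 172 and 183 in control cells, a fall of 0.88 (SE 0.085, adjusted p = 1.6e-07). The IL-1 family genes Il1f9 and Il1f10 were not called (log2 changes 0.13 and 0.14), nor was Il18bp, which encodes a binding protein that neutralises IL-18 (0.27, adjusted p = 0.122; 0.39 and called after median centring). Il1f6 averaged 60.3 ± 4.60 with rosiglitazone and 49.8 ± 6.29 in control cells.

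Other interleukin ligands were near the level of 50. Il7, a lymphocyte survival factor, had 34.8, 30.9 and 22.9 with rosiglitazone and 46.1, 59.5 and 79.4 in control cells. Il17d had 34.3, 28.3 and 28.5 with rosiglitazone and 44.5, 61.9 and 76.0 in control cells. Il34, which encodes a ligand of the CSF1 receptor, averaged 44.6 ± 7.38 with rosiglitazone and 71.2 ± 1.35 in control cells. All 3 genes reached 50 in control cells only.

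Of 16 interleukin receptor genes with a mean of 50 in both groups 13 fell (81.25%), and of 4 interleukin ligand and antagonist genes 1 did (25%). Among all genes tested 35.8% were lower. The chains of the IL-6 and oncostatin M receptors, Il6ra, Il6st and Osmr, fell. Il6ra, the chain that binds IL-6, had 291, 276 and 296 with rosiglitazone and 715, 623 and 604 in control cells, a log2 change of −1.17 (SE 0.064, adjusted p = 1.3e-10). Il6st, which encodes the shared chain gp130, had 2327, 2238 and 2282 with rosiglitazone and 3450.1, 3561 and 3415 in control cells, a change of −0.61 (SE 0.031, adjusted p = 5.1e-11). The groups of both were far apart relative to their spread. Osmr, the oncostatin M receptor chain, had 906, 922 and 984 with rosiglitazone and 1549, 1607 and 1571 in control cells and fell by 0.75 (SE 0.04, adjusted p = 1.1e-10), while its other probe set was not called (−0.42). Lifr, the receptor chain for leukaemia inhibitory factor, had 1027, 1049 and 1139 with rosiglitazone and 1455, 1493 and 1567 in control cells on its brightest probe set, a change of −0.49 (SE 0.045, adjusted p = 7.7e-08). Its other 2 probe sets went the opposite way and were called higher, at 0.40 and 0.62, so no single direction can be given for Lifr. Il31ra, which pairs with Osmr to bind IL-31, averaged 53.5 ± 5.02 with rosiglitazone and 36.9 ± 4.53 in control cells, and Il27ra, which pairs with gp130 to bind IL-27, averaged 34.2 ± 7.05 with rosiglitazone and 61.3 ± 4.92 in control cells. Socs3, a feedback inhibitor that binds gp130 and is induced through STAT3, had 146, 151 and 160.3 with rosiglitazone and 296, 329 and 283 in control cells. It fell by 0.99 (SE 0.075, adjusted p = 7.6e-09), and its promoter stretch with the STAT letters is shown above. Its 2 other probe sets were called lower too, at −1.04 and −0.44. Of its sets past the filter, that at −0.44 alone is not of the kind whose probes can pair with other transcripts.

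Csf1, the growth factor that keeps macrophages alive, had 1284, 1330.0 and 1392 with rosiglitazone and 2943, 3090.4 and 2988 in control cells. It was 2.25-fold lower and fell by 1.17 on the log2 scale (SE 0.037, adjusted p = 1.8e-13), and its 3 other probe sets were called lower too, with log2 changes between −0.31 and −1.33. Its receptor gene Csf1r, a macrophage marker, averaged 356 ± 15.1 with rosiglitazone and 993 ± 60.2 in control cells (log2 change −1.48, SE 0.053, adjusted p = 9.0e-13).

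The remaining interleukin receptors fell by less than 2-fold or were not called. Among receptors of the IL-17 family, Il17re and Il17rd fell by 0.73 and 0.68 (adjusted p = 1.7e-04 and 3.1e-04). Il17ra and Il17rc, the pair that binds IL-17A, had log2 changes of −0.13 (adjusted p = 0.077) and −0.14 (adjusted p = 0.0123). The call of Il17rc was lost without rosiglitazone replicate 1 or 2 or control replicate 1, at −0.11, −0.13 and −0.10, and after median centring, at −0.016. Il17ra was called without control replicate 3, at −0.17, and with the mean of its probe sets, at −0.40, its other set being called lower at −0.66. Il10rb, a chain shared by IL-10 and IL-22 receptors, fell by 0.60 (SE 0.048, adjusted p = 1.6e-08), and Il22ra2, which encodes a soluble binder of IL-22, by 0.61 (SE 0.092, adjusted p = 2.5e-05). Il3ra fell by 0.41, and Il4ra, the shared receptor chain of IL-4 and IL-13, by 0.31 (adjusted p = 0.00146 and 1.4e-04), a call that Il4ra lost with the mean of its probe sets. Il13ra1 averaged 44.7 ± 5.56 with rosiglitazone and 55.1 ± 1.79 in control cells. Il15ra, which presents IL-15, averaged 699.6 ± 15.4 with rosiglitazone and 699 ± 31.0 in control cells, a log2 change of 0.0026 with a 95% interval of −0.10 to 0.10, and it was 0.12 and called after median centring. Its other probe set was called higher, at 0.26, as was the mean of its sets, at 0.13. Il7r had a log2 change of 0.28 (adjusted p = 0.116; 0.40 and called after median centring).

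Of 6 TNF receptor superfamily genes, all with a mean of 50 in both groups, 2 fell, 1 rose and 3 were not called. That is 33.3% lower and 50% called, beside 35.8% and 59.4% of all genes tested, so neither share exceeded that of all genes. Tnfrsf1a, the broadly made TNF receptor with a death domain, had 2122, 2133 and 2234 with rosiglitazone and 2782, 2726 and 2687 in control cells, a log2 change of −0.34 (SE 0.032, adjusted p = 1.5e-07). Tnfrsf1b, the TNF receptor without a death domain, had 135, 121 and 135 with rosiglitazone and 270.3, 252 and 237 in control cells and fell by 0.96 (SE 0.079, adjusted p = 2.2e-08). The treated arrays lay wholly below the control arrays in both genes. Tnfrsf12a, which encodes Fn14, the receptor of the cytokine TWEAK, had 1137, 1087 and 1031 with rosiglitazone and 847, 966 and 820.1 in control cells. It rose by 0.31 (SE 0.056, adjusted p = 1.8e-04), and its second probe set was called higher as well, at 0.35. Tnfrsf11a, which encodes RANK, Tnfrsf4, which encodes OX40, and Tnfrsf22, which encodes a mouse decoy receptor of TRAIL, were not called (log2 changes −0.24, 0.11 and 0.013), although Tnfrsf11a was called without the variance trend.

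Of the NF-kB genes, Rela, which encodes the activating subunit p65, had 1058, 1050.0 and 1059 with rosiglitazone and 1329.8, 1342 and 1305 in control cells, a log2 change of −0.33 (SE 0.036, adjusted p = 6.8e-07). Nfkbia, which encodes the inhibitor IκBα and is itself a known NF-kB target, had 1972, 2147 and 2179.9 with rosiglitazone and 3179, 3175 and 3203 in control cells and fell by 0.60 (SE 0.037, adjusted p = 5.2e-10). Its 4 other probe sets were called lower too. Tnfaip3, which encodes the feedback inhibitor A20, had 309.7, 299 and 306 with rosiglitazone and 421, 405 and 401 in control cells on its brightest set, a change of −0.42 (SE 0.054, adjusted p = 3.9e-06), while its dimmer set was called higher, at 0.45. Relb, a subunit of the alternative pathway, had 49.2, 45.7 and 43.5 with rosiglitazone and 78.0, 89.5 and 68.1 in control cells. Nfkb2, its partner, was not called (0.031, adjusted p = 0.802), but its dimmer probe set was called lower, at −0.84. The adhesion receptor gene Vcam1, which lets leukocytes attach, had 336, 327 and 336 with rosiglitazone and 705, 735 and 826 in control cells and fell by 1.18 (SE 0.058, adjusted p = 3.7e-11), with both other probe sets called lower.

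Probe sets of a gene were compared for the 28 genes that had more than 1 past the filter on low values, in a fit over all probe sets. Of their 40 other probe sets, 23 were called the same way as the brightest set and 3 the opposite way, all in Lifr and Tnfaip3. Another 4, in Il17rd, Il17re, Il4ra and Osmr, were not called where the brightest set was. A further 5, of which 2 are in Cxcl1 and the others in Il15ra, Il17ra and Nfkb2, were called where the brightest set was not, and for 5 neither was called. These counts include genes that reached 50 in 1 group only and compare probe sets with each other. Which transcripts each set reads was not tested. For 6 genes (Ccl27a, Cxcl1, Il17d, Nfkb2, Socs3 and Tnfrsf12a) the brightest set carries the maker's mark for probes that can pair with other transcripts. The brightest set of Il1rl2 carries another of the maker's marks, for probes shared by several transcripts.

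**Figure D3:**
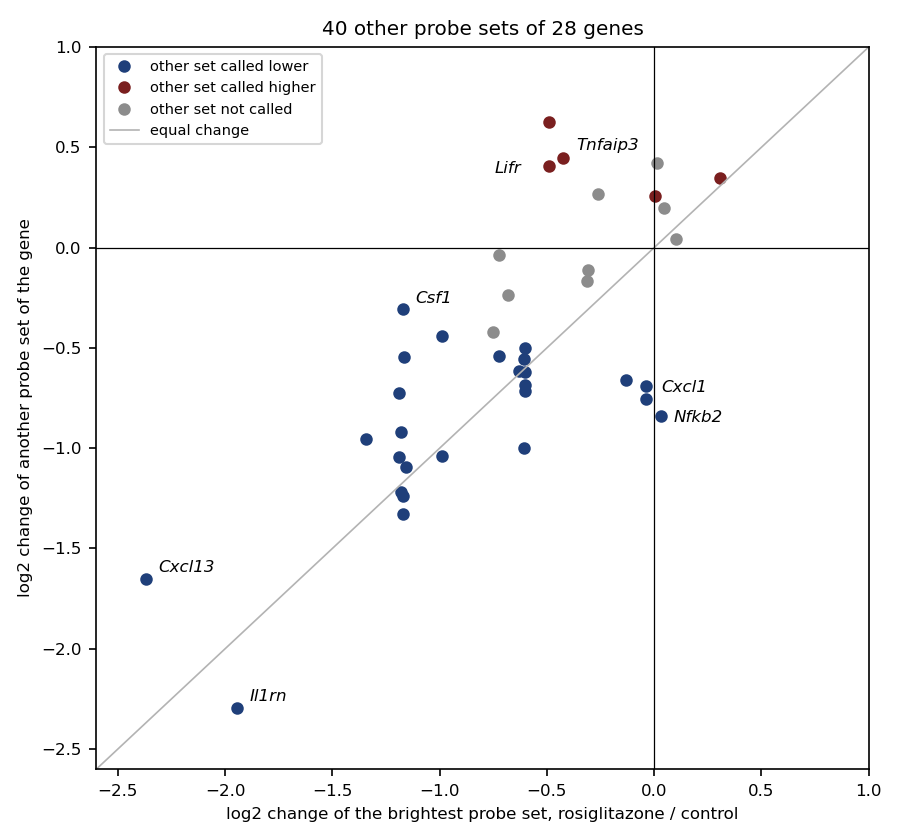
Log2 change of 40 further probe sets (vertical axis) against that of the brightest probe set of the same gene (horizontal axis), for 28 genes, coloured by the call of the further set. The sets of Lifr and Tnfaip3 at upper left oppose their brightest sets, and those of Cxcl1 and Nfkb2 lie below 0 where the brightest set is close to 0.

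Several of these genes stand side by side on a chromosome, by gene order in the RefSeq annotation. On chromosome 11 Ccl2, Ccl7, Ccl11, Ccl12 and Ccl8 are consecutive. The log2 changes of Ccl2, Ccl7 and Ccl8 were −2.45, −1.63 and −0.66, and that of Ccl11, between them, −0.07. Ccl11 was singled out after its values were seen, and the difference between it and its neighbours was not tested. In Ccl2, Ccl7 and Ccl11 alike the highest control array was control replicate 2. Ccl9, Ccl6, Ccl3 and Ccl4 form a second row on that chromosome, at −0.63, −1.34, −0.50 and −0.20. On chromosome 1 the consecutive receptor genes Il1r2, Il1r1 and Il1rl2 had −0.75, −1.29 and −1.06, while Il18r1 and Il18rap, further along the same row, were too dim to test. Osmr and Lifr are neighbours on chromosome 15. Il6st and Il31ra are neighbours on chromosome 13, where Il6st was lower with rosiglitazone and the mean of Il31ra was higher.

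**Figure D4:**
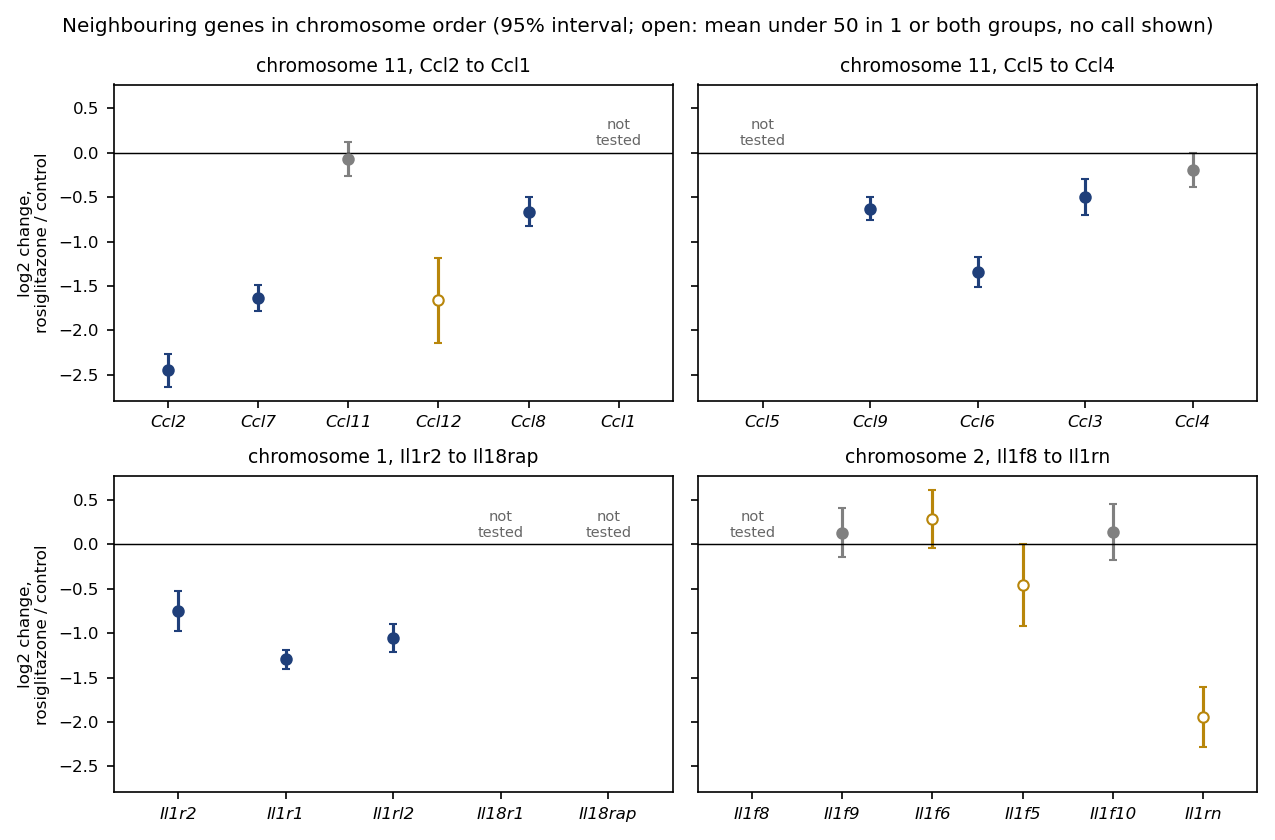
Log2 change with limma's 95% interval (vertical axis) of neighbouring genes in chromosome order, evenly spaced along the horizontal axis, for 2 rows of CC chemokine genes, the IL-1 receptor row and the IL-1 family row. Ccl11 lies near 0 between Ccl7 and Ccl12, and Il1rn is the lowest point of the IL-1 family row.

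Further genes were taken from lists of related signalling, which hold signalling factors and also other ligands and receptors. Among all genes tested 59.4% were called, 35.8% lower and 23.6% higher. In the list of TNF receptor and NF-kB signalling 16 of 33 tested genes were lower and 5 higher (63.6% called, median −0.12). This balance depended on the scaling, with 10 lower and 7 higher after quantile normalization and 8 lower and 9 higher after median centring. The kinase gene Ikbke fell by 0.84, Birc3, an antiapoptotic NF-kB target, by 0.70, and Tnfaip2 by 0.67, while the adaptor gene Traf4 rose by 0.54, with adjusted p of 4.2e-05 or less. In the list of JAK-STAT and SOCS genes 11 of 22 were lower and 1 was higher (54.5% called, median −0.18). After median centring 9 were lower and 5 higher. Socs2, a feedback inhibitor of growth hormone signalling, averaged 498 ± 21.6 with rosiglitazone and 1672 ± 44.9 in control cells and fell by 1.75 (SE 0.044, adjusted p = 1.4e-14). Socs5 fell by 0.78, and the kinase genes Jak2 and Jak1, which act below gp130, by 0.73 and 0.71, with adjusted p of 3.4e-09, 2.5e-09 and 4.4e-11.

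In IL-1 and Toll-like receptor signalling 12 of 19 genes were lower and 2 higher (73.7% called, median −0.26, beside 59.4% of all genes). After quantile normalization and also after median centring 11 were lower and 4 higher. Tlr7, a receptor for RNA, averaged 30.1 ± 6.55 with rosiglitazone and 62.8 ± 5.63 in control cells and fell by 1.08. Cd14, a coreceptor of Tlr4 that is also among the macrophage markers, fell by 1.02, Irak3, an inhibitor of this pathway, by 0.94, and the inflammasome adaptor gene Pycard by 0.66, with adjusted p of 1.1e-04 or less. Of 9 further gp130 and colony stimulating factor genes 3 were lower and 2 higher (55.6% called). Csf1r and the stem cell factor gene Kitl (−1.19) led the falls. Cntfr, which encodes the receptor of ciliary neurotrophic factor and is 1 of the 2, passed the filter through the treated group alone and averaged 71.2 ± 10.6 with rosiglitazone and 24.4 ± 6.29 in control cells. Csf2rb rose to 61.4 ± 13.6 with rosiglitazone, against 31.953 ± 13.1 in control cells. Its call was lost without the filter on low values, with a floor of 64 and with the mean of its probe sets. Among 9 other chemokine and atypical receptor genes, Rarres2, which encodes chemerin, rose by 0.25 on its brightest probe set but had −0.14 when its sets were averaged, and Ackr1 fell by 0.41, a call lost on leaving out any of the 6 arrays and after quantile normalization or median centring. Of the TNF family ligands 10 of 14 were too dim to test, Tnf among them. Of the 4 tested, Eda alone was called, at −0.47, and that call was lost without rosiglitazone replicate 1 or 2 or control replicate 1 or 2 and after median centring.

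**Figure D5:**
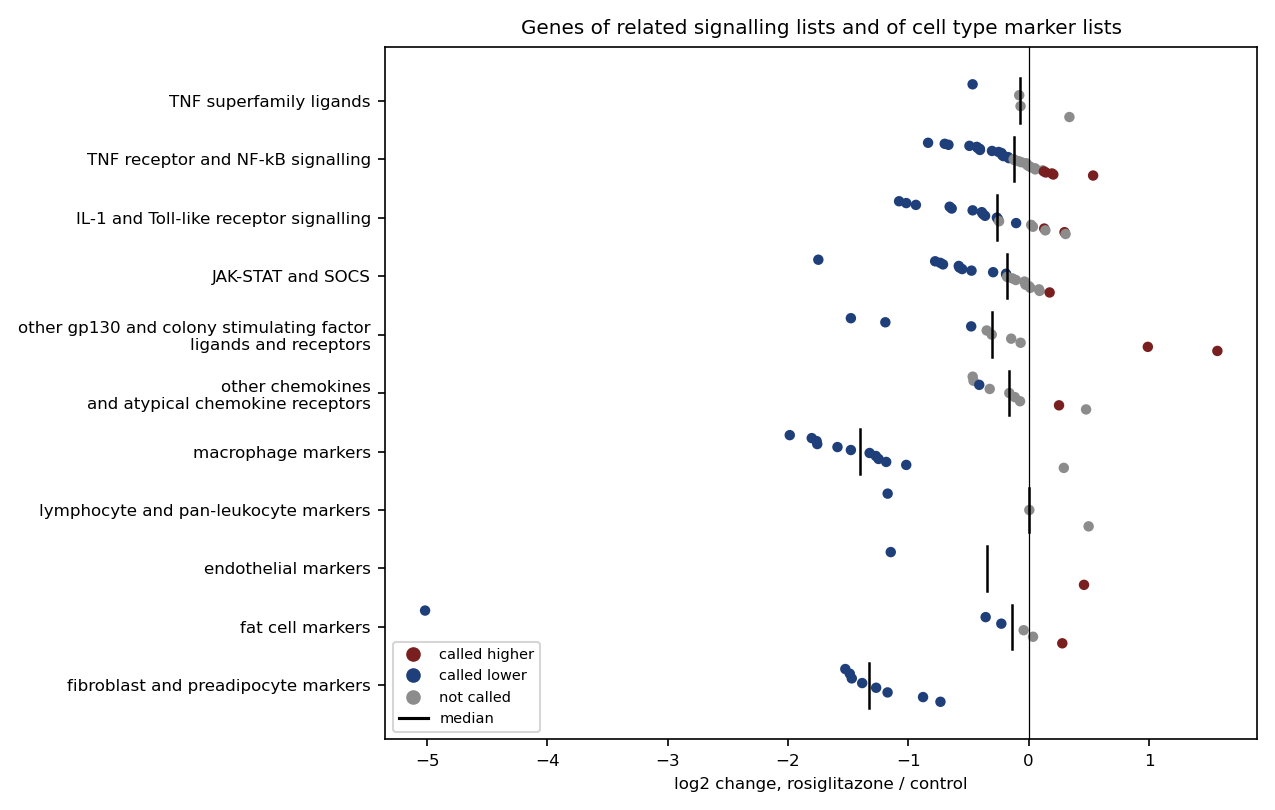
Log2 change (horizontal axis) of each tested gene of the related signalling lists and of the cell type marker lists, coloured by call, with the list's median as a black line; genes of a list are spread vertically for legibility. The macrophage and the fibroblast markers centre at −1.40 and −1.33, and the signalling lists lie closer to 0.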

How the data were processed

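Per the labels' protocols, TRIzol-extracted RNA was labelled as biotinylated cRNA for 6 Affymetrix mouse 430 2.0 arrays, 1 for each sample. Samples were grouped by title, because the treatment protocol text names rosiglitazone for all 6. The authors' deposited table holds probe set intensity on a linear scale. The software and scaling behind it are not stated in the labels, and array medians differed little. From it, control probe sets were dropped along with the dimmest 40% by mean (up to an intensity of 27.3), values under 16 were set to 16, and log2 was taken. Probe sets were named from the platform annotation, taking those with exactly 1 symbol, and the brightest one stood for a gene.

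The comparison used limma 3.58.1 in R 4.3.3, with lmFit and a trended eBayes, no covariates, and two-sided p-values adjusted by Benjamini-Hochberg over 12952 genes at a threshold of 0.05. An exact permutation test of 3 against 3 cannot go below a two-sided p of 0.1. The procedure was tested on simulated data. The members and lists were chosen with earlier results of these data known. Values on every array were given for a set of named genes (Ccl2, Cxcl12, Il6st, Csf1, Lifr, Osmr, Tnfrsf1a, Rela, Nfkbia, Tnfaip3, Socs3 and Vcam1) and for the 4 largest changes of each role among called genes without overlap, and up to 4 called genes of each related list were named. Others were named to account for every gene. Same-numbered arrays did not deviate together (correlations of deviations −0.041, −0.020 and 0.023), so the replicate number was not taken as a pairing. Alternatives were other filters, median centring, quantile normalization, a floor of 64, log2(value + 1), the mean of a gene's probe sets, eBayes without a trend, the replicate block, a stricter threshold, other levels for membership and each array left out in turn.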

Additional observations from a re-analysis of the deposited data

How the results depend on the processing

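Of the 33 genes called among the 49 with a mean of 50 in both groups, 28 kept call and direction under all 16 alternatives of processing and of left-out arrays, 3 lost the call under at least 1 and 2 turned direction. Of the 16 not called, 10 were called under at least 1. Their count called lower, 32, stayed between 31 and 34, and their count called higher, 1, was 4 after median centring and at most 2 otherwise. With the mean of a gene's probe sets the direction turned for Lifr (0.18), Tnfaip3 (0.012), Nfkb2 (−0.40) and Rarres2 (−0.14). The dimmer sets of Lifr and Tnfaip3 run against the brightest. In Nfkb2 the brightest set was not called and a dimmer one was called lower. The single sets of Rarres2 were not compared. The count over all 64 genes includes those whose choice favoured a difference, so it supports no statement here. It was 4 higher, against 8 after median centring and 1 with a floor of 64, with a level of 100 in at least 1 group and with a level of 50 over all 6 arrays. With the replicate block 32 of the 49 were lower and 1 was higher, as without it. It gave 54 related genes against 55 and 7693 of all genes against 7692, and 45 of the 64, also unchanged. The block ended the call of Ackr1. Related genes called higher numbered 11, against 18 after quantile normalization, 21 after median centring and 6 with a floor of 64, and those called lower 44, against 34, 31 and 41. Over all genes the split was 3057 higher to 4635 lower on the deposited scale, but 3947 to 3781 with quantile normalization and 4558 to 3285 with median centring. The cause of these shifts was not tested. Leaving out 1 array at a time gave 31 to 34 lower and 1 higher of the 49, 46 to 52 related genes and 6968 to 7460 of all genes. Of the 64 it gave 44 to 46, which again supports no statement.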

Other observations

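Genes with these symbols whose mean stayed under 50 in both groups number 85, of which 24 entered the fit. Icam1, an adhesion receptor, averaged 29.6 ± 5.27 with rosiglitazone and 49.9 ± 6.54 in control cells and was lower (log2 change −0.76, limma adjusted p = 0.00345). Il17a averaged 23.8 ± 3.86 with rosiglitazone and 39.3 ± 8.501 in control cells. Il16, a T cell attractant, averaged 47.5 ± 11.6 with rosiglitazone and 18.9 ± 3.26 in control cells. Il17a and Il16 passed the filter on low values through 1 group alone and get no call. Il1b averaged 43.6 ± 4.68 with rosiglitazone and 31.0 ± 5.52 in control cells and was higher (0.50, adjusted p = 0.043). Il6 was too dim to test, with 12.8, 10.5 and 13.6 on the arrays with rosiglitazone and 37.9, 40.8 and 31.6 on the control arrays. Lif was not called (−0.062), nor were Cxcl9, Ccr1 and Ccr2.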
